A study of Mus musculus with 12 samples.

Results

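Matrix metalloproteinases (MMPs) are zinc-dependent enzymes that cut collagens, elastin, proteoglycans and other proteins of the extracellular matrix, and tissue inhibitors of metalloproteinases (TIMPs) are small secreted proteins that bind and block them. Most MMPs are made as inactive proenzymes that are switched on when a propeptide is cut away, by furin-like proteases, by plasmin or by another MMP. In the infarcted heart they come from fibroblasts and from incoming leukocytes and take part in the breakdown of the damaged matrix that precedes the scar. Messenger RNA measures the template for these proteins and not their activity.

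The genes described are 10 of the 18771 in the deposited table, taken by gene symbol: Mmp2, Mmp3, Mmp8, Mmp9, Mmp12, Mmp13, Mmp14, Mmp19, Timp1 and Timp3. None of the 10 had a blank value, and all 10 passed the filter on low counts. RNA sequencing was done on cardiac fibroblasts, stromal cells that lay down the matrix of the heart, taken 3 days after myocardial infarction from the left ventricle of mice. The 6 Pfas CKO libraries carried PDGFRa CreER/+;Pfas fl/fl, a tamoxifen-inducible Cre at the fibroblast gene Pdgfra with both alleles of Pfas floxed, and their mice received tamoxifen before and after the infarction. The 6 control libraries carried PDGFRa CreER/+;Pfas fl/+, the same Cre with a single floxed allele, so all 12 libraries came from infarcted, Cre-carrying hearts. Tamoxifen treatment of the control mice is not stated in the labels, so drug and genotype cannot be told apart. Pfas encodes an enzyme of de novo purine synthesis. Cre can act in any cell that expresses Pdgfra, and which cells were recombined was not measured here. The labels do not say that each library is a separate mouse, so p-values measure only a spread between libraries that may be technical.

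Each Pfas CKO library held 20320133 to 20520386 estimated read counts and each control library 20560953 to 20950074. Levels are given as CPM (counts scaled to a common library size) after TMM scaling, a correction of library totals by edgeR. A count of 0 allowed up to 0.157 to 0.161 CPM in Pfas CKO and 0.131 to 0.134 CPM in control (floor of 3 counts, counting error only). The targeted transcript, Pfas, averaged 11.2 ± 3.78 CPM in Pfas CKO and 23.3 ± 0.861 CPM in control (SD, n = 6 each), with a log2 fold change of -1.05 ± 0.156 (SE, edgeR quasi-likelihood test with Benjamini-Hochberg adjustment, adjusted p = 2.26e-05). Pfas stood at 8.01 to 9.66 CPM in Pfas CKO 1, 3, 5 and 6. Pfas CKO 2 and 4 held more of it, at 17.4 and 14.5 CPM, still below the 22.4 to 24.9 CPM of control. Whether this difference bears on the levels of the 10 genes was not tested. The libraries were not evenly spaced. Pfas CKO 1, 3, 5 and 6 were close to one another, Pfas CKO 2 and 4 stood apart from them, and the controls formed the sets 1 to 3 and 4 to 6. The mean chi-square per gene between libraries was 1.68 to 5.21 within such a set, 17.55 to 39.87 between sets of a group and 168.88 to 253.25 between the groups. Results are therefore also given with each set summed to 1 sample, which left 3 Pfas CKO and 2 control samples.

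Of the 10 genes, 6 were higher in Pfas CKO (Mmp2, Mmp3, Mmp9, Mmp13, Mmp14 and Timp3), 3 were lower (Mmp8, Mmp12 and Mmp19) and Timp1 was not called, by the edgeR quasi-likelihood test at an adjusted p under 0.05. Over all 13600 genes tested, 68.6% were called, 33.4% higher and 35.2% lower, so a call by itself sets none of the 10 apart. A fold of at least 2 together with a call was reached by 6 of the 10, 4 higher and 2 lower, against 13.1% of all genes tested, 6.88% higher and 6.26% lower. The median log2 fold change of the 10 was 0.75, and that of all tested genes was -0.02. In 9 of the 10 the TMM-scaled CPM of the Pfas CKO and control libraries did not overlap, 6 lying above and 3 below, a separation seen in 47.1% of all genes tested. Of these 9, Timp3 did overlap in TPM, where levels are also corrected for transcript length. With near-identical libraries summed, 8 of the 10 were called, 5 higher and 3 lower, where 37.2% of all genes were, 18.3% higher and 18.9% lower.

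**Figure D1:**
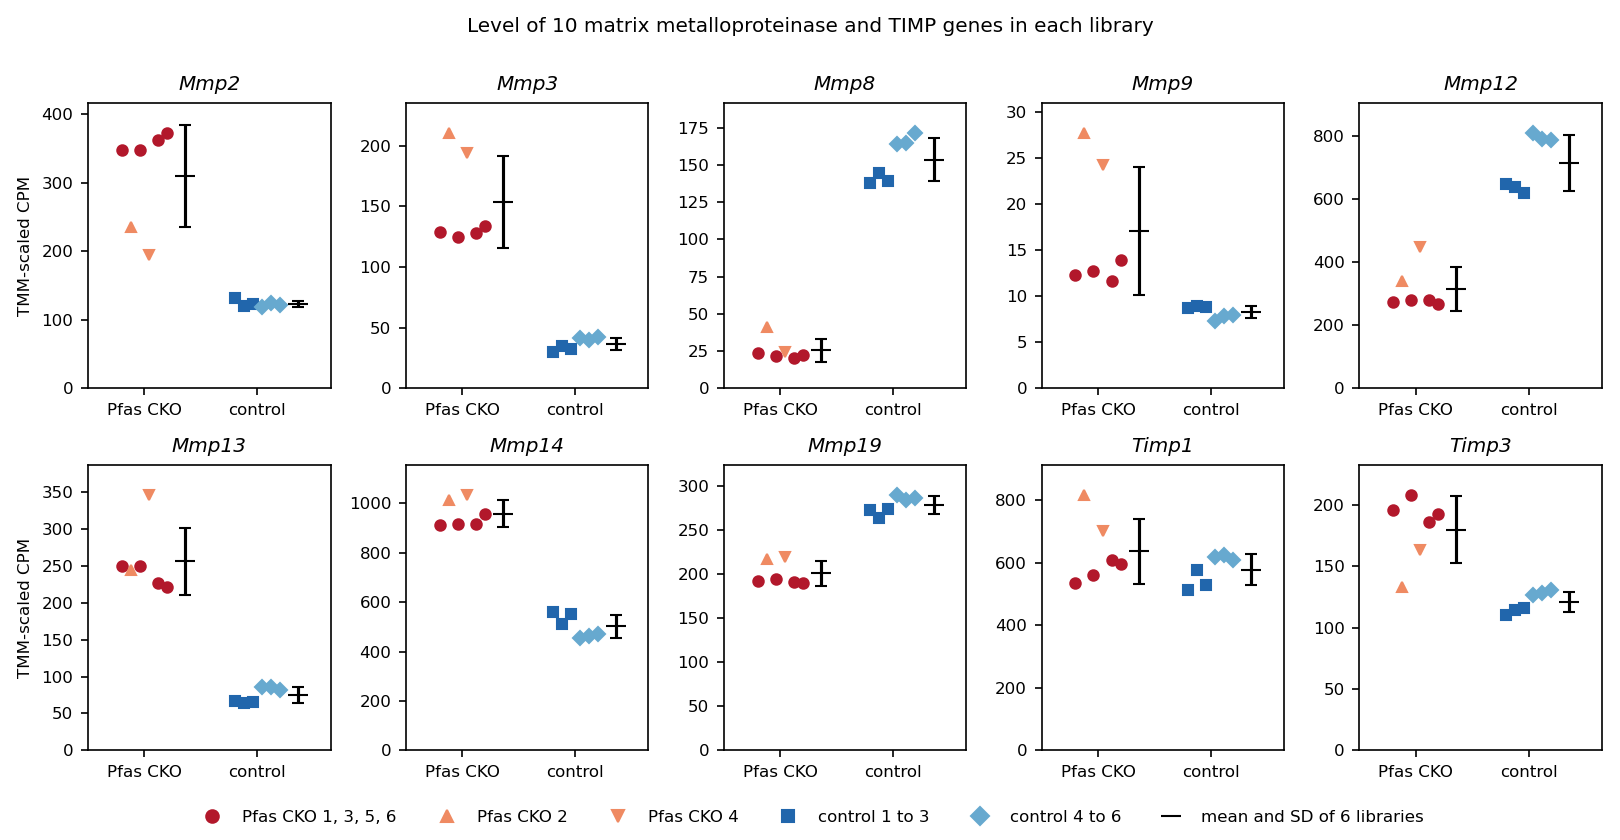
TMM-scaled CPM (linear axis from 0, separate for each gene) of the 10 genes in each of 6 Pfas CKO and 6 control libraries. Points are libraries, with marker shape showing the near-identical sets, and the bar is the mean ± SD of 6 libraries. In all panels but that of Timp1 the points of the groups are apart, and Pfas CKO 2 and 4 often stand away from the other Pfas CKO libraries.

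The collagenases moved in opposite directions. Mmp13 (gene ID 17386; GRCm38 chr9:7272514-7283331, plus strand) encodes collagenase-3, the main interstitial collagenase of the mouse. It stood at 222, 246 and 345 CPM (lowest, median and highest of 6 libraries) in Pfas CKO, against 63.7, 74.2 and 86.3 CPM in control. Every Pfas CKO library lay above every control library, and Pfas CKO 4 was the highest. The means were 256 ± 45.2 CPM in Pfas CKO and 74.9 ± 10.4 CPM in control (SD, n = 6 each), a 3.42-fold higher level with a log2 fold change of 1.77 ± 0.113 (SE, edgeR adjusted p = 2.02e-09).

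Mmp8 (gene ID 17394; GRCm38 chr9:7558456-7568485, plus strand) encodes neutrophil collagenase, named for the leukocyte whose granules store it, though macrophages and fibroblasts can also make it. Its level was 20.6, 22.9 and 41.3 CPM in Pfas CKO (lowest, median, highest), against 138, 154 and 171 CPM in control. The groups were far apart, and Pfas CKO 2, the highest of its group, was still well below the lowest control library. Mmp8 in Pfas CKO was at 16.7% of its control level, with 25.6 ± 7.78 CPM there and 154 ± 14.7 CPM in control (SD, n = 6 each; log2 fold change -2.58 ± 0.146, adjusted p = 4.83e-10 by edgeR). This was the largest change in either direction among the 10 genes. In TPM, a unit corrected for transcript length, the ratio of Mmp13 to Mmp8 was 5.41 to 13.1 in Pfas CKO and 0.404 to 0.480 in control.

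Mmp3 (gene ID 17392; GRCm38 chr9:7445822-7455975, plus strand) encodes stromelysin-1, which degrades proteoglycans and activates other pro-MMPs. It stood at 125, 132 and 210 CPM in Pfas CKO (lowest, median, highest), against 30.2, 37.4 and 42.1 CPM in control. Again no library of one group reached the range of the other, and Pfas CKO 2 and 4 were highest. The means were 154 ± 38.1 CPM in Pfas CKO and 36.7 ± 5.03 CPM in control (SD, n = 6 each). Mmp3 was 4.18-fold higher in Pfas CKO (log2 fold change 2.06 ± 0.143, edgeR adjusted p = 5.65e-09), the largest rise of the 10.

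Mmp12 (gene ID 17381; GRCm38 chr9:7344381-7369499, plus strand) encodes macrophage elastase, an elastin-degrading enzyme made mainly by macrophages. Its level was 267, 280 and 447 CPM in Pfas CKO (lowest, median, highest), against 620, 718 and 807 CPM in control. The ranges did not meet, although Pfas CKO 4 came nearest to the controls. The means of 315 ± 70.0 CPM in Pfas CKO and 715 ± 88.4 CPM in control (SD, n = 6 each) amount to a 2.27-fold lower level (log2 fold change -1.18 ± 0.123, edgeR adjusted p = 5.40e-07). The summed level of 11 macrophage genes overlapped between the groups, with 5767 to 7662 CPM in Pfas CKO and 6061 to 6613 CPM in control, and 6 of the 11 were higher, 2 lower and 3 not called. Lyz2, a lysozyme gene of myeloid cells and the largest part of that sum, had 2599 to 3386 CPM in Pfas CKO and 2969 to 3483 CPM in control. It was not called (edgeR adjusted p = 0.203). The 6 higher genes were C1qa, C1qb, C1qc, Mrc1, Ptprc and Itgam, with log2 fold changes of 0.19 to 1.81. Of these, C1qb had 404 to 706 CPM in Pfas CKO and 158 to 175 CPM in control. Adgre1 and Cd68 were lower, at -0.21 and -0.33. In bulk RNA, fewer cells of a type and less RNA per cell cannot be told apart.

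These 4 genes lie in a single cluster of MMP genes. In GENCODE M21 it spans 427.1 kb of GRCm38 chr9:7272514-7699585 and holds 10 Mmp genes, 6 of which were tested. Along the cluster, the order of the tested genes is Mmp13 (higher), Mmp12 (lower), Mmp3 (higher), Mmp10 (higher), Mmp8 (lower) and Mmp27 (lower). Genes called in opposite directions thus lie side by side. Mmp12 starts 61.0 kb beyond the end of Mmp13, and Mmp8 starts 48.2 kb beyond the end of Mmp10. Mmp27 begins only 2.9 kb after Mmp8, and both were lower. Mmp1b, on the minus strand, overlaps the last 1261 bases of Mmp12 and reached at most 5 counts in a Pfas CKO library and 4 in a control library, below the filter.

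**Figure D2:**
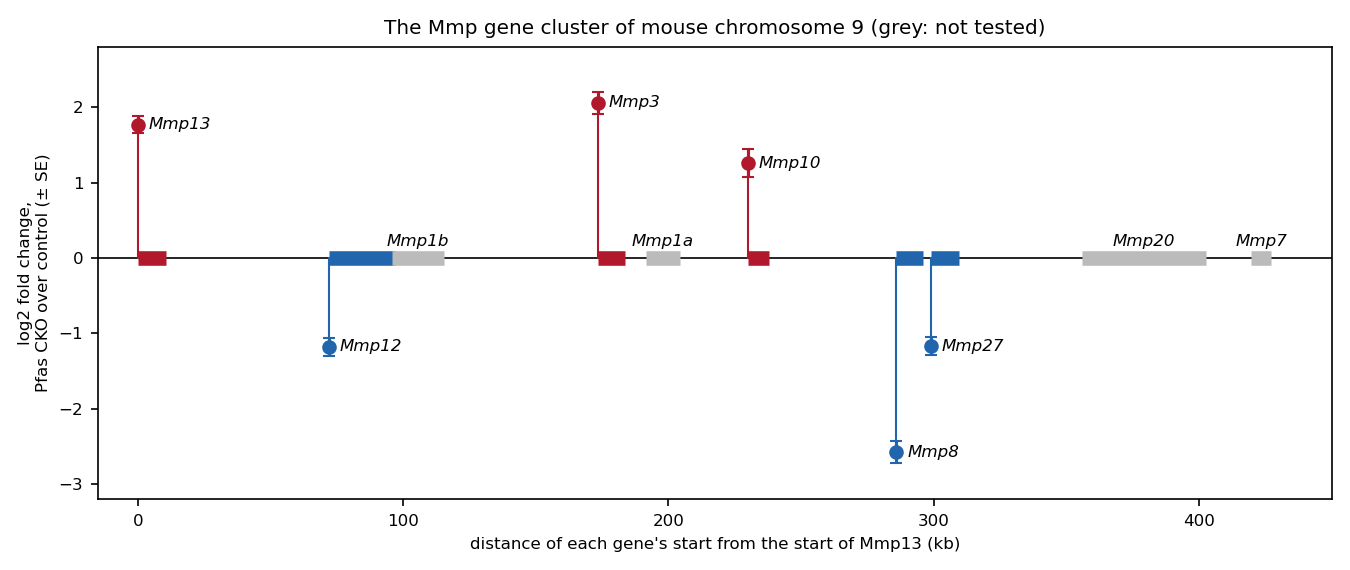
Log2 fold change of Pfas CKO over control (y axis, ± SE) of the genes of the Mmp cluster on chromosome 9, placed by distance in kb from the start of Mmp13 (x axis). Red genes were called higher, blue genes lower, and grey genes were not tested. Mmp13, Mmp3 and Mmp10 lie above 0, with Mmp12 between them below 0 and Mmp8 and Mmp27 below 0 at the right.

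The promoter windows of the pair of cluster genes that rose most and the pair that fell most are printed to set their letters side by side. Each runs from 250 bases before to 50 after the transcription start in RefSeq (GRCm38.p6), 5′ to 3′ on the plus strand, at chr9:7272264-7272563 for Mmp13, chr9:7445572-7445871 for Mmp3, chr9:7344147-7344446 for Mmp12 and chr9:7558179-7558478 for Mmp8. Capitals mark matches to the letters of the AP-1 motif (TGANTCA), bound by Fos and Jun proteins, and of the TATA box (TATAAA), on either strand. Mmp12 has neither and is in lower case throughout.
Mmp13: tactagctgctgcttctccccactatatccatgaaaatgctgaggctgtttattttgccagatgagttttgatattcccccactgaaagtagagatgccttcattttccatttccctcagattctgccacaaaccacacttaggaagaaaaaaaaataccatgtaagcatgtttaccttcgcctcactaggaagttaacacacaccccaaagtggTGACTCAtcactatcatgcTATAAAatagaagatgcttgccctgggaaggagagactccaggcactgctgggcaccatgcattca
Mmp3: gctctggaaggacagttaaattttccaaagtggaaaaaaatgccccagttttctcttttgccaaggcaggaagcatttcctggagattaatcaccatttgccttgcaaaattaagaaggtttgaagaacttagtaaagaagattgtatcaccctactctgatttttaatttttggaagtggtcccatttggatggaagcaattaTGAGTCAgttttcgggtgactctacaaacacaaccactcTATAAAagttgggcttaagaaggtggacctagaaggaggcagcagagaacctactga
Mmp12: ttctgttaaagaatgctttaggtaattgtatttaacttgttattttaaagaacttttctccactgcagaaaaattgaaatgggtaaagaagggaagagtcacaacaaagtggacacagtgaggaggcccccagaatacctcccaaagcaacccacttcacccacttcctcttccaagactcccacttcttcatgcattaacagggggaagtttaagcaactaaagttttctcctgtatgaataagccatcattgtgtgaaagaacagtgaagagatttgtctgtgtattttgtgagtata
Mmp8: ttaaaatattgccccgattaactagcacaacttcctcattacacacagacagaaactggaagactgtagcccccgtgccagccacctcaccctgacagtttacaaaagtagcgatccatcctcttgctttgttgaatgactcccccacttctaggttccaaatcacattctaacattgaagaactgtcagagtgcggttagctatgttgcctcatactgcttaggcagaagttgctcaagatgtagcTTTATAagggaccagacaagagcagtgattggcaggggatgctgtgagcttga

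Mmp13 has an AP-1 match, TGACTCA, that begins 35 bases before the start and a TATA box that begins 16 bases before it. Mmp3 has TGAGTCA beginning 46 bases before the start and a TATA box 7 bases before it. The Mmp8 window holds a TATA box on the reverse strand only. Over the cluster, AP-1 letters were found in the windows of 3 of 3 genes called higher, 0 of 3 called lower and 4 of 4 not tested, and a TATA box in 3 of 3, 1 of 3 and 4 of 4. Outside the cluster, the windows of Mmp14, Timp3, Mmp15, Mmp25, Timp4 and Reck, all called higher, held no AP-1 letters. Those of Mmp11, Mmp23 and Mmp24, called lower, held none either, so the split is seen in the cluster only. Among all 32851 windows of the RefSeq table, 7.81% hold the AP-1 letters and 13.6% the TATA box. The AP-1 match is symmetric, so a match on one strand is a match on both, and it does not overlap with the TATA box in these windows. A match is a description of the letters and not a measured binding site, and no match says only that these letters are not in the window.

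Both gelatinases, which cut denatured collagen and basement membrane collagen, were higher in Pfas CKO. Mmp2 (gene ID 17390; GRCm38 chr8:92827291-92853420, plus strand) encodes gelatinase A, the constitutive gelatinase of fibroblasts. It stood at 194, 347 and 372 CPM in Pfas CKO (lowest, median, highest), against 119, 122 and 131 CPM in control. The groups did not overlap, and here Pfas CKO 2 and 4 were the lowest of their group, nearest to control. The means were 310 ± 75.0 CPM in Pfas CKO and 123 ± 4.28 CPM in control (SD, n = 6 each), a 2.51-fold difference (log2 fold change 1.33 ± 0.134, edgeR adjusted p = 4.00e-07).

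Mmp9 (gene ID 17395; GRCm38 chr2:164940780-164955850, plus strand) encodes gelatinase B, an inducible enzyme of leukocytes and activated stromal cells. It stood at 11.7, 13.4 and 27.7 CPM in Pfas CKO (lowest, median, highest), against 7.37, 8.37 and 8.95 CPM in control. The ranges did not overlap, and the levels in Pfas CKO 2 and 4, of 27.7 and 24.2 CPM, were above the 11.7 to 14.0 CPM of the other 4 libraries. The mean of 17.1 ± 6.99 CPM in Pfas CKO was 2.06-fold that of 8.29 ± 0.643 CPM in control (SD, n = 6 each; log2 fold change 1.05 ± 0.203, adjusted p = 0.000297 by edgeR). Without Pfas CKO 2 and 4 the log2 fold change was 0.60 (edgeR adjusted p = 1.10e-05).

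The summed level of 11 neutrophil genes was 104 to 170 CPM in Pfas CKO and 79.5 to 89.4 CPM in control, with the highest sums in Pfas CKO 2 and 4. Of the 5 that passed the filter, 3 were higher, 1 lower and 1 not called. S100a9, a calcium-binding protein of neutrophils and monocytes, had 23.7 to 56.2 CPM in Pfas CKO and 2.27 to 3.77 CPM in control. Ly6g, a marker restricted to mouse neutrophils, was at 0 in 3 Pfas CKO libraries and reached at most 2.31 counts in Pfas CKO and 10.3 counts in control. Elane, a granule protease, was at 0 in 4 Pfas CKO and 3 control libraries. The higher sum in Pfas CKO was carried by S100a8 and S100a9, and without them the other 9 genes summed to 66.9 to 80.7 CPM in Pfas CKO and 72.3 to 83.0 CPM in control, overlapping. Most of that sum of 9 genes was Csf3r, a receptor of the granulocyte lineage, with 60.6 to 71.5 CPM in Pfas CKO and 67.2 to 76.0 CPM in control. Csf3r was lower in Pfas CKO (log2 fold change -0.14, edgeR adjusted p = 0.0291). Ltf, also on the neutrophil list, was higher, with 2.04 to 3.14 CPM in Pfas CKO and 0.355 to 1.01 CPM in control (log2 fold change 2.21, edgeR adjusted p = 2.31e-07). The part of neutrophils in the Mmp8 and Mmp9 values was not tested.

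Mmp14 (gene ID 17387; GRCm38 chr14:54431612-54445364, plus strand) encodes membrane-type 1 MMP, a cell-surface collagenase that activates pro-MMP2. It stood at 912, 938 and 1032 CPM in Pfas CKO (lowest, median, highest), against 454, 491 and 562 CPM in control. The libraries of each group lay close together and the groups far apart. The means were 958 ± 53.4 CPM in Pfas CKO and 502 ± 46.6 CPM in control (SD, n = 6 each), 1.91-fold apart, with a log2 fold change of 0.93 ± 0.0626 (edgeR adjusted p = 3.96e-09).

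Mmp19 (gene ID 58223; GRCm38 chr10:128790910-128800824, plus strand), a secreted MMP that cuts basement membrane proteins, had the smallest called change of the 8 MMPs described so far. It stood at 190, 193 and 220 CPM in Pfas CKO (lowest, median, highest), against 264, 279 and 289 CPM in control. The ranges were apart, and the mean was 1.39-fold lower in Pfas CKO, at 201 ± 14.0 CPM there and 278 ± 9.83 CPM in control (SD, n = 6 each; log2 fold change -0.47 ± 0.0511, adjusted p = 8.71e-07 by edgeR). Tmem198b, on the opposite strand, overlaps its last 789 bases and averaged 5.57 CPM in Pfas CKO and 7.30 CPM in control. The strand setting of the counting is unknown here, and reads of overlapping genes cannot be told apart.

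Of the inhibitors, Timp3 was higher in Pfas CKO and Timp1 was not called. Timp1 (gene ID 21857; GRCm38 chrX:20870166-20874735, plus strand), an inducible inhibitor that also binds the proenzyme of MMP9, stood at 535, 602 and 815 CPM in Pfas CKO (lowest, median, highest), against 511, 593 and 625 CPM in control. The groups overlapped, with Pfas CKO 2 and 4 above all other libraries. The means of 636 ± 104 CPM in Pfas CKO and 578 ± 48.6 CPM in control (SD, n = 6 each) did not differ past the threshold (log2 fold change 0.14 ± 0.0929, edgeR adjusted p = 0.199). Its sign was not stable, at -0.09 with library totals in place of TMM, -0.16 on log2(TPM + 1) and -0.02 without Pfas CKO 2 and 4. Timp1 lies within the span of Syn1 on the opposite strand, which averaged 2.22 CPM in Pfas CKO and 2.41 CPM in control.

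Timp3 (gene ID 21859; GRCm38 chr10:86300372-86349506, plus strand) encodes an inhibitor that stays bound to the matrix and also blocks ADAM proteases. Its level was 133, 189 and 207 CPM in Pfas CKO (lowest, median, highest), against 110, 121 and 130 CPM in control. In CPM the ranges came close without overlapping, Pfas CKO 2 being the lowest of its group and control 4 to 6 the highest of theirs. In TPM they overlapped, with 54.07 in Pfas CKO 2, below the 58.3 to 65.3 TPM of control. The mean was 1.49-fold higher in Pfas CKO, 179 ± 27.2 CPM there and 121 ± 8.37 CPM in control (SD, n = 6 each; log2 fold change 0.57 ± 0.0910, adjusted p = 4.74e-05 by edgeR). With near-identical libraries summed the log2 fold change was 0.44 and the call was lost (edgeR adjusted p = 0.0592). Timp3 lies within the span of Syn3 on the opposite strand, which averaged 0.389 CPM in Pfas CKO and 0.657 CPM in control.

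The libraries of one genotype also differed. Control 4 to 6 against control 1 to 3 called 7 of the 10 genes, 6 higher and 1 lower (edgeR quasi-likelihood test, adjusted p under 0.05), where 45.5% of all 13727 genes tested were called, 23.5% higher and 22.0% lower. These differences were small, with a median log2 difference of 0.17 over the 10 and the largest, of Mmp13, at 0.34. In 9 of the 10 genes the log2 fold change of Pfas CKO over control was larger in size than the log2 difference between the control sets, the exception being Timp1 with 0.14 against 0.18. The share of all genes with this trait was not computed, so it sets none of the 10 apart. The Pfas CKO sets also differed. Pfas CKO 1, 3, 5 and 6 averaged 357 CPM of Mmp2 and 12.7 CPM of Mmp9. Pfas CKO 2 and 4 had 235 and 194 CPM of Mmp2, and 27.7 and 24.2 CPM of Mmp9. The 9 calls held in the same direction against control 1 to 3 alone and against control 4 to 6 alone. They also held without Pfas CKO 2 and 4. The log2 fold change of Mmp12 was -1.01 against control 1 to 3 and -1.34 against control 4 to 6, and that of Mmp13 was 1.96 and 1.60.

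Levels of different genes were compared in TPM. In Pfas CKO, Timp1 was highest at 1470 ± 215 TPM, followed by Mmp14 at 496 ± 21.9, Mmp12 at 327 ± 70.3, Mmp2 at 199 ± 49.95, Mmp13 at 189 ± 33.2 and Mmp3 at 170 ± 39.5 TPM (SD, n = 6). Mmp19, Timp3, Mmp8 and Mmp9 came last there, between 117 and 10.6 TPM on average. Mmp2, Mmp13 and Mmp3 overlapped with one another in range in Pfas CKO, as did Mmp8 and Mmp9, and have no order beyond their spread. Mmp2 also overlapped Mmp19, which stood above it in Pfas CKO 4, at 128 against 124 TPM. In control, Timp1 was again first at 1630 ± 96.6 TPM, but Mmp12 was next at 894 ± 100.2, then Mmp14 at 318 ± 37.7, Mmp19 at 198 ± 5.22 and Mmp8 at 151 ± 10.9 TPM (SD, n = 6). Mmp2, Mmp13, Timp3, Mmp3 and Mmp9 came after them, between 96.5 and 6.29 TPM on average, and of all neighbours in the control order only Mmp13 and Timp3 had overlapping ranges.

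The make-up of the MMP transcript pool differed between the groups. Taking the summed TPM of the 8 Mmp genes as the whole, Mmp12 made up 18.9% to 26.5% in Pfas CKO and 46.5% to 53.5% in control. Mmp14 was the largest component in every Pfas CKO library, with 30.4% to 33.9%, against 15.0% to 21.1% in control. The share of Mmp13 was 11.1% to 14.5% in Pfas CKO and 3.49% to 4.07% in control, and that of Mmp3 was 9.55% to 14.4% in Pfas CKO and 2.40% to 3.01% in control. Mmp2 held 7.10% to 16.3% in Pfas CKO and 4.89% to 6.03% in control, with Pfas CKO 4 at the low end. The share of Mmp8 was 1.11% to 2.06% in Pfas CKO and 8.01% to 8.91% in control, that of Mmp19 was 7.32% to 7.87% in Pfas CKO and 10.7% to 11.8% in control, and that of Mmp9 was 0.505% to 1.06% in Pfas CKO and 0.292% to 0.412% in control. The ranges of all 8 shares were apart between the groups. The shares of a library are parts of one whole, so a smaller share of Mmp12 by itself raises those of the others. They are therefore not 8 separate results. These 8 genes held 95.6% to 97.0% in Pfas CKO and 95.1% to 96.1% in control of the TPM of the 20 Mmp genes with values in every library.

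The summed TPM of the 8 Mmp genes was 1441 to 1749 in Pfas CKO and 1657 to 1882 in control, and that of Timp1 and Timp3 was 1342 to 1888 in Pfas CKO and 1554 to 1785 in control. Both ranges overlapped. The direction of the mean difference in these sums depends on the unit, since TPM and TMM-scaled CPM differ in scaling and in length correction. The log2 ratio of Pfas CKO over control was -0.22 for the Mmp genes and -0.14 for the TIMPs in TPM. In TMM-scaled CPM the ratios were 0.24 and 0.22. Without Mmp12, the other 7 Mmp genes summed to 1149 to 1286 TPM in Pfas CKO and 864 to 928 TPM in control. Within a library, the scaling of its total cancels out of a ratio, but the length correction of TPM does not. The ratios here are in TPM. The ratio of the Mmp sum to the TIMP sum was 0.834 to 1.10 in Pfas CKO and 0.976 to 1.13 in control, overlapping. The ratio of Mmp2 to Timp2, the inhibitor that docks pro-MMP2 onto MMP14, was 1.15 to 1.34 in Pfas CKO and 0.492 to 0.573 in control, and that of Mmp14 to Timp2 was 2.71 to 4.93 in Pfas CKO and 1.69 to 1.94 in control. The Mmp9 to Timp1 ratio was 0.00518 to 0.00929 in Pfas CKO and 0.00319 to 0.00459 in control. The ranges of these 3 ratios were apart, with more Mmp2 and Mmp14 transcript per Timp2 transcript and more Mmp9 per Timp1 in each Pfas CKO library. Each sets an Mmp gene called higher over an inhibitor that was not called, so the direction follows from the choice of genes. Mmp8, Mmp12 and Mmp19, called lower, were not set over an inhibitor.

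**Figure D3:**
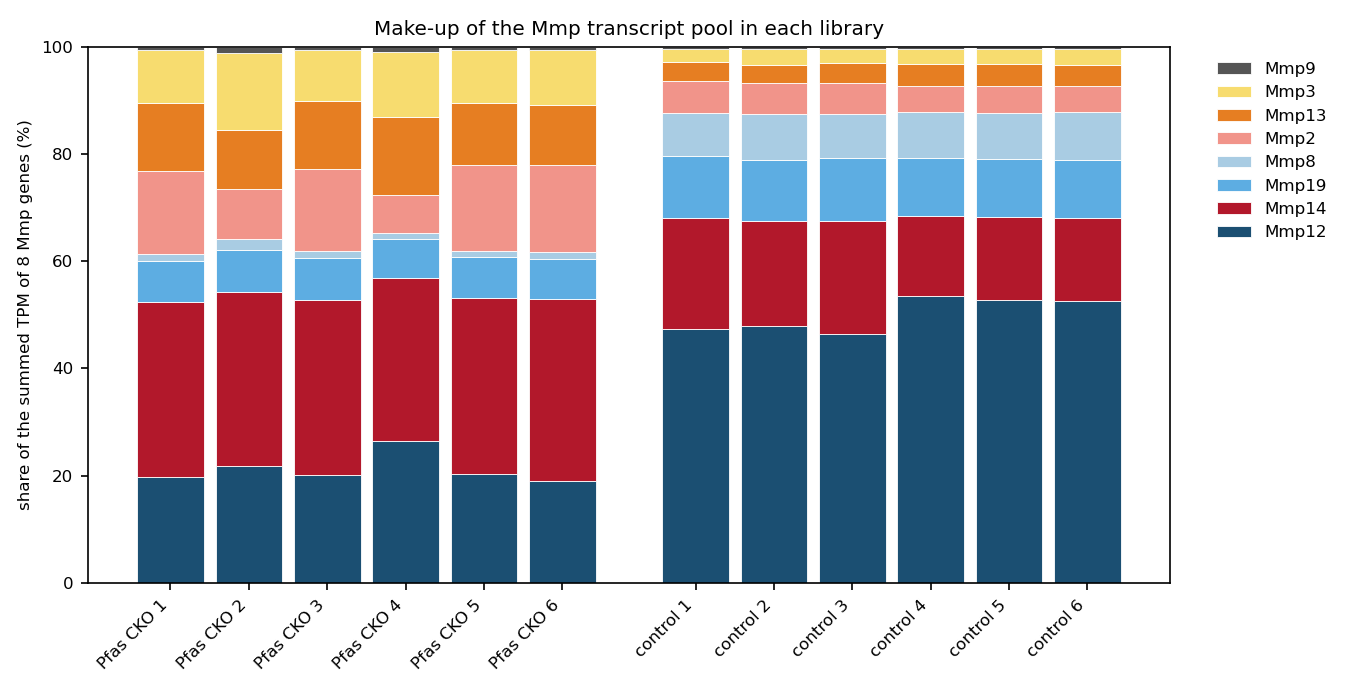
Share (%) of each of 8 Mmp genes in their summed TPM (y axis) in each library (x axis), Pfas CKO libraries at the left and control libraries at the right. Mmp12 fills 46.5% to 53.5% of each control bar and 18.9% to 26.5% of each Pfas CKO bar, in which Mmp14 is the largest segment.

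Of 15 further Mmp genes listed, 10 passed the filter, of which 3 were higher, 6 lower and 1 not called in Pfas CKO (edgeR adjusted p under 0.05), with a median log2 fold change of -0.24. Of all genes tested, 68.6% were called, 33.4% higher and 35.2% lower. The highest of the 10 was Mmp23, with 35.5 ± 3.53 TPM in Pfas CKO and 49.5 ± 5.03 TPM in control (SD, n = 6 each), above Mmp9 in both groups. Mmp10, stromelysin-2, stood at 3.39, 4.07 and 5.25 CPM in Pfas CKO (lowest, median, highest), against 1.01, 1.76 and 2.46 CPM in control, apart in every library and 2.39-fold higher (log2 fold change 1.26 ± 0.185, edgeR adjusted p = 2.12e-05). Its log2 fold change was 1.61 against control 1 to 3 alone and 0.97 against control 4 to 6 alone. Mmp25, a membrane-anchored MMP of leukocytes, was 2.38-fold higher with 8.27 ± 1.49 CPM in Pfas CKO and 3.48 ± 0.309 CPM in control (SD, n = 6 each; edgeR adjusted p = 1.68e-07). Mmp15, a membrane-type MMP, was 1.54-fold higher, with 7.85 ± 0.696 CPM in Pfas CKO and 5.09 ± 1.11 CPM in control (edgeR adjusted p = 0.000432). The control sets themselves differed in Mmp15 by -0.55 on the log2 scale (control 4 to 6 over control 1 to 3, edgeR adjusted p = 0.000785), and its log2 fold change was 0.38 against control 1 to 3 and 0.91 against control 4 to 6.

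Mmp27, the neighbour of Mmp8, was the most reduced of these, at 3.55, 4.98 and 6.78 CPM in Pfas CKO (lowest, median, highest), against 9.84, 11.0 and 12.3 CPM in control. No Pfas CKO library reached the control range, and the level was 2.25-fold lower (log2 fold change -1.17 ± 0.123, edgeR adjusted p = 6.33e-07). Mmp11, stromelysin-3, was 1.71-fold lower, with 1.64 ± 0.290 CPM in Pfas CKO and 2.81 ± 0.264 CPM in control (SD, n = 6 each; edgeR adjusted p = 7.22e-05). The other 4 called lower, Mmp16, Mmp17, Mmp23 and Mmp24, had log2 fold changes between -0.47 and -0.22, and all 4 lost their call with near-identical libraries summed. Mmp7 is not analysed here, Mmp1a and Mmp20 had blank values, and Mmp1b and Mmp21 were below the filter.

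Among 4 further inhibitors, 3 were higher and Timp2 was not called (edgeR adjusted p under 0.05), with a median log2 fold change of 1.18, where 68.6% of all genes tested were called. Timp2 stood at 199, 321 and 329 CPM in Pfas CKO (lowest, median, highest), against 250, 267 and 289 CPM in control. Its control levels lay inside the Pfas CKO range, since Pfas CKO 2 and 4 were low and the other 4 libraries high. The log2 fold change was 0.10 ± 0.115 (edgeR adjusted p = 0.474), and it was -0.14 with library totals, -0.22 on log2(TPM + 1) and -0.10 with near-identical libraries summed. Without Pfas CKO 2 and 4 it was 0.26 and called (edgeR adjusted p = 0.000307). Timp4, a TIMP expressed in heart tissue, was low with 1.06 to 2.04 CPM in Pfas CKO and 0.223 to 0.535 CPM in control, apart and 4.07-fold higher (edgeR adjusted p = 1.67e-06). It shares its span with Syn2 on the opposite strand, which averaged 0.920 CPM in Pfas CKO and 0.326 CPM in control. Reck, a membrane-anchored MMP inhibitor, was 1.62-fold higher with 7.18 ± 0.777 CPM in Pfas CKO and 4.43 ± 0.389 CPM in control (SD, n = 6 each; edgeR adjusted p = 7.71e-06). A2m, a plasma-type protease inhibitor, was 3.17-fold higher with 3.09 ± 0.881 CPM in Pfas CKO and 0.972 ± 0.381 CPM in control (edgeR adjusted p = 2.58e-05). The control sets themselves differed in A2m by 1.02 on the log2 scale (edgeR adjusted p = 0.00343), and its log2 fold change was 2.27 against control 1 to 3 and 1.23 against control 4 to 6.

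Of 8 genes whose products activate, dock or clear MMPs or take up cut collagen, 5 were higher, 1 lower and 2 not called (edgeR adjusted p under 0.05), with a median log2 fold change of 0.26, where 68.6% of all genes tested were called. With near-identical libraries summed 3 of the 8 were called, where 37.2% of all genes were. Lcn2, a lipocalin that forms a complex with MMP9, stood at 26.0, 28.4 and 49.4 CPM in Pfas CKO (lowest, median, highest), against 3.07, 4.97 and 5.14 CPM in control. All Pfas CKO libraries were far above all controls, and the level was 7.56-fold higher (log2 fold change 2.92 ± 0.187, edgeR adjusted p = 2.25e-09). Pcsk6, a furin-like convertase, was 1.67-fold higher with 51.3 ± 8.77 CPM in Pfas CKO and 30.6 ± 2.77 CPM in control (edgeR adjusted p = 1.15e-05). Furin itself averaged 392 ± 9.19 CPM in Pfas CKO and 415 ± 54.3 CPM in control and was not called (edgeR adjusted p = 0.321). Its log2 fold change was -0.24 against control 1 to 3 and 0.09 against control 4 to 6.

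Lrp1, an endocytic receptor that clears MMPs and TIMPs, was 1.61-fold lower in Pfas CKO, at 1006, 1064 and 1324 CPM there (lowest, median, highest), against 1495, 1681 and 2157 CPM in control. The ranges were apart (log2 fold change -0.69 ± 0.0997, edgeR adjusted p = 1.88e-05). Mrc2, a receptor that takes up cut collagen, had 183 ± 7.10 CPM in Pfas CKO and 196 ± 30.1 CPM in control and was not called (SD, n = 6 each; edgeR adjusted p = 0.307). Cd44, a hyaluronan receptor that docks MMP9 at the cell surface, averaged 1378 ± 95.4 CPM in Pfas CKO and 1181 ± 147 CPM in control (log2 fold change 0.22, edgeR adjusted p = 0.0181), but its log2 fold change was -0.01 with library totals and -0.06 on log2(TPM + 1), and its call was lost with near-identical libraries summed (edgeR adjusted p = 0.294) and against control 4 to 6 alone (edgeR adjusted p = 0.372). Bsg, basigin, an inducer of MMPs in neighbouring cells, had 346 ± 20.6 CPM in Pfas CKO and 283 ± 12.9 CPM in control (edgeR adjusted p = 9.71e-05), a call lost with near-identical libraries summed (edgeR adjusted p = 0.0606) and with library totals (edgeR adjusted p = 0.289). Pcsk5, another convertase, had a log2 fold change of 0.32 (edgeR adjusted p = 0.0119), also lost with near-identical libraries summed (edgeR adjusted p = 0.0797).

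**Figure D4:**
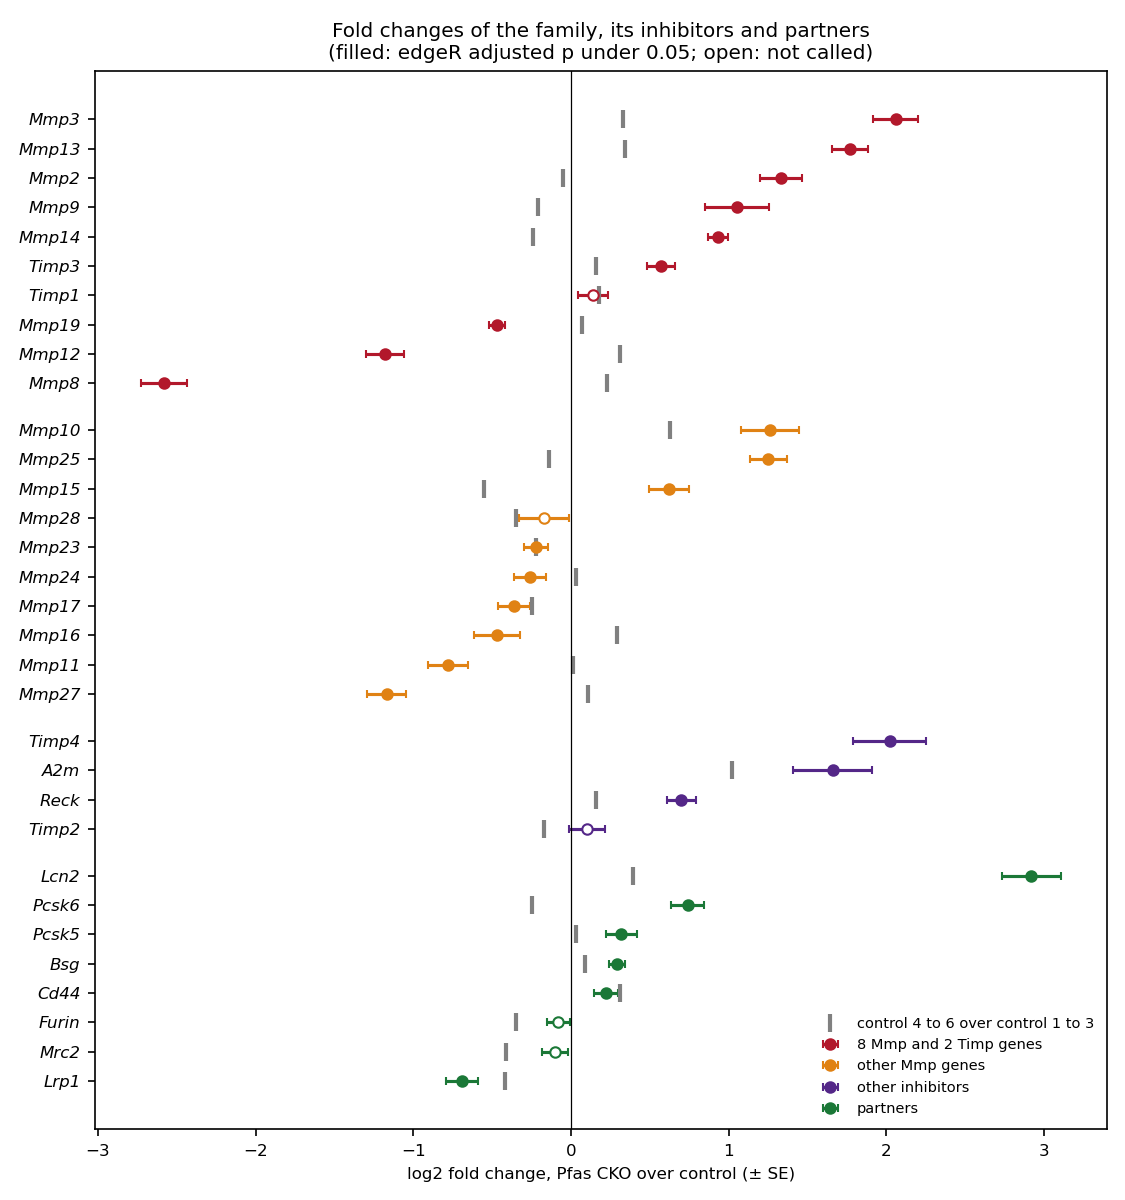
Log2 fold change of Pfas CKO over control (x axis, points ± SE) of the 10 genes, the other tested Mmp genes, other inhibitors and partners, each group sorted by value. Filled points passed an edgeR adjusted p under 0.05, open points did not, and grey ticks give the log2 difference of control 4 to 6 over control 1 to 3. Mmp8 is the lowest of all points and Lcn2 the highest.

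The labelled cell type was checked by markers, and their part in the MMP and TIMP values was not tested. The 9 fibroblast genes summed to 9714 to 10123 CPM in Pfas CKO and 11255 to 13119 CPM in control, with 5 higher, 4 lower and a median log2 fold change of 0.43. The collagen genes Col1a1 and Col1a2 carried the lower sum, and without them the other 7 summed to 3993 to 5030.5 CPM in Pfas CKO and 2986 to 3757 CPM in control. Tcf21, Dcn, Lum, Postn and Thy1 were higher, with log2 fold changes of 0.43 to 1.30, and Pdgfra and Pdgfrb were lower. Pdgfra, the gene that drives the Cre, had 100.2 to 159 CPM in Pfas CKO and 199.5 to 221 CPM in control. With macrophage genes at the levels given with Mmp12, the libraries held transcripts of both cell types. The 6 endothelial genes summed to 625 to 816 CPM in Pfas CKO and 607 to 655 CPM in control, and the 6 cardiomyocyte genes to 32.0 to 38.5 CPM in Pfas CKO and 11.7 to 13.2 CPM in control. Haemoglobin and other erythrocyte genes summed to 129 to 211 CPM in Pfas CKO and 8.60 to 9.51 CPM in control.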

How the data were processed

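Poly(A)-selected messenger RNA of mouse cardiac fibroblasts was sequenced in 12 libraries, 6 Pfas CKO and 6 control, grouped by the genotype in the labels. The deposited table holds estimated counts per gene, not normalized by the authors, and TPM and FPKM values that the authors scaled per library and by length, per the file headers. The FPKM values were left aside. For 9 libraries the submitters' processing notes list Bowtie2, RSEM and DESeq2, for control 1 to 3 they list no tool, and the build is GRCm38. A difference in processing between control sets and the genotype cannot be told apart where it follows the groups. The sources used here give neither strand setting nor filters. Of 18771 genes, 1067 with blank values in a control library were left out, which left 17704.

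After rounding to whole numbers, the estimated counts of all genes were fitted together with edgeR 4.0.16 in R 4.3.3 (TMM, filterByExpr, glmQLFit, glmQLFTest, a group term alone). P-values were adjusted over 13600 genes by Benjamini-Hochberg, and 0.05 was the threshold. Standard errors were obtained from the F statistic of each fold change. The test was also run on simulated counts of independent libraries with 200 changed genes. Near-identical sets of libraries and changes in most genes, as seen here, were not simulated. That run therefore cannot vouch for the p-values given here. Libraries with a mean chi-square per gene under 10 (12739 genes, mean count of at least 20) were summed as an alternative. Others were RLE scaling, library totals, DESeq2 1.42.0, limma 3.58.1 on log2(TPM + 1) and log2(TPM + 0.1), other filters, a replicate block, either control set alone, Pfas CKO 2 and 4 left out, and each library left out. Leaving out control libraries between the control sets, the alternatives for the 10 genes there, and marker sums without S100a8 and S100a9 or without Col1a1 and Col1a2, were added after seeing the data.

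The 10 genes and the lists of further MMPs, inhibitors, partners and cell markers were chosen with earlier results of these data known. All 10 are named, as are the listed genes called with a fold of at least 1.5 and Timp2, Timp4, Reck, Furin, Bsg, Lcn2, Cd44, Lrp1 and Mrc2 whatever their values. Pcsk5, Mmp16, Mmp17, Mmp23, Mmp24 and Mmp28 are named in addition, to complete small counts. Positions of genes come from GENCODE M21 (GRCm38), and promoter windows from RefSeq (GRCm38.p6), which matched 7 of the 10 genes.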

Additional observations from a re-analysis of the deposited data

Results flagged for a closer look

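Each group of 6 libraries was searched for a single library that lay far from the others for the range they span (Dixon's 95% limit). Of 66 groups, 5 held such a library, in each case a Pfas CKO library. For 6 independent libraries chance gives about 1 in 20. That rate does not apply to the near-identical sets here, so the count is not compared with it.

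Mmp8 stood at 41.3 CPM in Pfas CKO 2, above the 20.6 to 24.1 CPM of the other 5 Pfas CKO libraries. Mmp13 stood at 345 CPM in Pfas CKO 4, above the 222 to 249.8 CPM of the others. In Pfas CKO 2, Bsg had 386 CPM, where the others had 327 to 346 CPM, and Lrp1 had 1324 CPM, where the others had 1006 to 1096 CPM. Mmp28, an MMP of epithelial and other tissues that was not called, had 2.70 CPM in Pfas CKO 6, where the others had 1.97 to 2.20 CPM.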

How the results depend on the processing

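For the 10 genes, 240 values under 24 settings each were recomputed, and 235 kept their direction and side of the threshold. The 5 that did not were Timp1, at -0.093 with library totals, -0.159 on log2(TPM + 1) and log2(TPM + 0.1) and -0.017 without Pfas CKO 2 and 4, and Timp3, whose call was lost with near-identical libraries summed. Of 538 such values for the other named genes, 50 changed. Those that turned sign were Timp2, at -0.138 with library totals, -0.216 and -0.218 on the TPM scales and -0.104 with libraries summed, Cd44, at -0.009 with library totals and -0.056 on both TPM scales, and Furin and Mrc2, at 0.091 and 0.108 against control 4 to 6. The causes were not tested.

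Genes called numbered 9330, but 5660 with near-identical libraries summed, which leaves fewer samples, and 1786 with a fold of at least 2. Library totals gave 2775 higher and 7202 lower, and log2(TPM + 1) gave 2279 and 7280, where the main scaling gave 4545 and 4785. The median log2 fold change of all genes was -0.26 and -0.28 with these scalings and -0.02 with the main one. The log2 ratios of the summed Mmp and TIMP levels were 0.239 and 0.221 in TMM-scaled CPM, against -0.221 and -0.139 in TPM. Leaving out 1 library at a time gave 8969 to 9577 calls and 9 of the 10 genes throughout, and between the control sets 5349 to 6157 calls and 7 of the 10.

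Same-numbered libraries of the groups correlated at -0.0441 to 0.166, and 3 of 6 Pfas CKO libraries correlated best with their own number. These values do not settle whether replicate numbers pair the libraries. The replicate block gave 9284 calls, 4529 higher and 4755 lower, with 9 of the 10 genes called. At Mmp1b and Mmp21 depth limited the test. The log2 ratio of the neutrophil marker sum was 0.578, and -0.085 without S100a8 and S100a9, and that of the fibroblast sum was -0.282, and 0.480 without Col1a1 and Col1a2.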

Other observations

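Of the 10 genes, 7 have a promoter window in the RefSeq table (GRCm38.p6), and the window of Mmp14, Timp1 and Timp3 held a GC box (GGGCGG, searched on both strands), as 35.7% of all 32851 windows did. The letters begin 19 and 13 bases before the start of Mmp14 and 8 bases before that of Timp1. No GC box was found in the windows of the 10 genes of the chromosome 9 cluster, where 7 held the AP-1 letters and 8 a TATA box. These are descriptions of the letters only.

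Mmp21 reached at most 2 counts in a Pfas CKO library and 3 in a control library and was at 0 in 4 Pfas CKO and 3 control libraries. Mmp1b was at 0 in 0 Pfas CKO libraries and 1 control library. Both levels are at the floor of 3 counts or close to it, and no difference was detectable at this depth.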
